A study of Oncorhynchus mykiss with 43 samples.

Results

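The muscle of rainbow trout refed for 7 or 11 days was compared with that of trout refed for 4 days. The arrays were chosen by the feeding time in the sample titles, which gave 17 fish refed for 7 days (9 fish) or 11 days (8 fish) and 9 fish refed for 4 days, in all 26 of the 43 arrays of the study. All of these fish were year-old trout of a spring strain that had gone without food for a month and were then fed well above the normal ration, so the fast is common to both sides of the comparison. The other arrays came from 8 fish killed at the end of the fast and 9 fish refed for 36 days, and are used only where named. From every fish a slice of the fast muscle under the dorsal fin was taken, and its RNA was hybridised alone to a nylon membrane of cDNA clones, so that each array stands for 1 animal. The groups were sampled one after the other while the water was cooling, and feeding time and water temperature cannot be told apart. The comparison asks which transcripts go on changing once fish have been fed for more than 4 days.

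Fish muscle grows both by the enlargement of fibres and by the making of new fibres from myogenic precursor cells. A fast is marked by the breakdown of muscle protein, and the return of food by a spell of rapid growth. Growing cells first build nucleoli and ribosomes, the machinery of protein synthesis, and chaperones that fold the new proteins. The sarcomere, the contractile unit, is then assembled from thick filaments of myosin with its light chains, thin filaments of actin, tropomyosin and the troponins, and scaffold proteins such as nebulin.

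Intensities are the authors' normalized values on a linear scale, and changes are given as log2 differences with their standard error (SE). Of 9023 clones, 4805 had no value on any of the 26 arrays and 1811 had a value in at least 5 fish of each of the 3 groups and were tested. An array listed 1566 to 2616 clones, with a median of 2245.5, and the lowest numbers were those of fish 2 (1566) and fish 8 (1620) at 4 days. A gene name could be given to 291 clones, of which 141 were tested, 84 had values in too few fish and 66 had none. Of the fast muscle markers, both clones of skeletal troponin C, skeletal myosin light chain 1 and nebulin had a value in all 26 fish, and in the median fish nebulin was at or above 93.6% of the listed values. Skeletal alpha actin was listed in 12 fish, among the brightest clones, and triadin in 13, with medians of 1.5 at 4 days and 1.89 later. Markers of myeloid cells (Spi-1/PU.1) and of liver (cytochrome P450 2K1) were listed in none of the 26 fish, and apolipoprotein B-100 was listed in 10, near the bottom of the array. The study named PU.1 among the genes raised during recovery, and an empty cell does not show that a cell type was absent. Twist related protein 2, taken as a marker of connective tissue, was listed in all 26 fish and was bright, with medians of 6.48 at 4 days and 9.11 later. Of the isoforms named for slow or cardiac muscle, the beta heavy chain was listed in 1 fish, cardiac alpha actin in 9, and cardiac myosin light chain 1 and troponin T in all 26.

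At an adjusted p under 0.05 (limma, 1 mean for 7 and 11 days), 105 of the 1811 clones (5.80%) differed between the later fish and those at 4 days. Of these, 80 were higher (4.42%) and 25 lower (1.38%) at 7 and 11 days, and an unadjusted p under 0.05 was reached by 365. The changes were small. The median rise among called clones was a log2 of 0.35, a fold of 1.27, and the median fall was -0.36, so that 75 of the 80 rises and 22 of the 25 falls were under 1.5-fold. The quartiles over all tested clones were -0.08 and 0.11. The 17 and the 9 fish did not overlap for 3 clones (0.166% of those tested), all of them called. Centring the arrays on the clones listed in all fish turned the split into 60 higher and 49 lower, and the rises numbered 49 without fish 2 of 4 days, 51 without fish 5 of 11 days and 52 without fish 10 of 11 days. In whole muscle a change in RNA per cell and a change in the share of a cell type cannot be told apart.

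**Figure D1:**
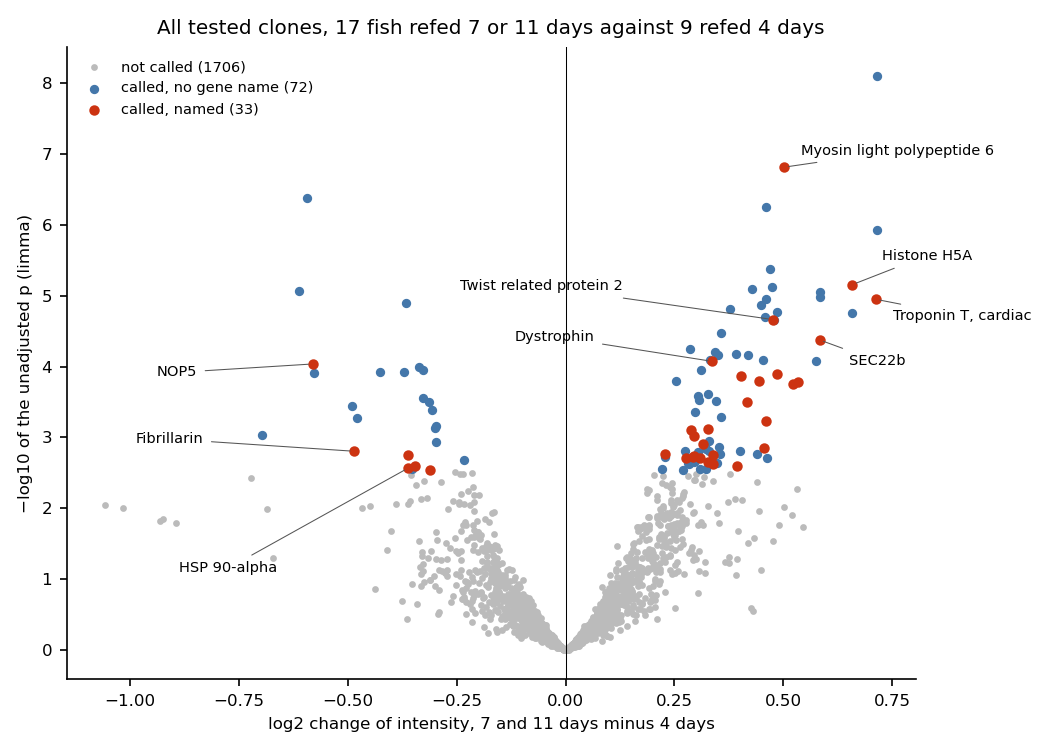
Log2 change of intensity between 7 and 11 days together and 4 days (x axis) against −log10 of the unadjusted limma p (y axis) for the 1811 tested clones, with called clones in colour. The 80 called rises stand to the right and the 25 called falls to the left, and the clones with the largest falls (-1.06 and -1.02) lie low in the plot and were not called.

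Named clones made up 33 of the called clones, 27 higher (19.1% of the 141 tested) and 6 lower (4.26%). The names are those that the study printed for clones it had selected on these same fish, so the shares describe a chosen list and are no independent evidence of its direction. The study had also grouped these clones by their time course, which includes the feeding times compared here. Sorted by the role of the gene, the rises lay mostly in the cytoskeleton and sarcomere (13 of 17 tested) and in transcriptional regulation (7 of 13), and 3 of the 6 falls lay in ribosome biogenesis (3 of 4 tested). By limma no clone was called among 20 of the mitochondrion, 18 of RNA processing and 4 ribosomal proteins, with 2, 7 and 0 at an unadjusted p under 0.05.

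**Figure D2:**
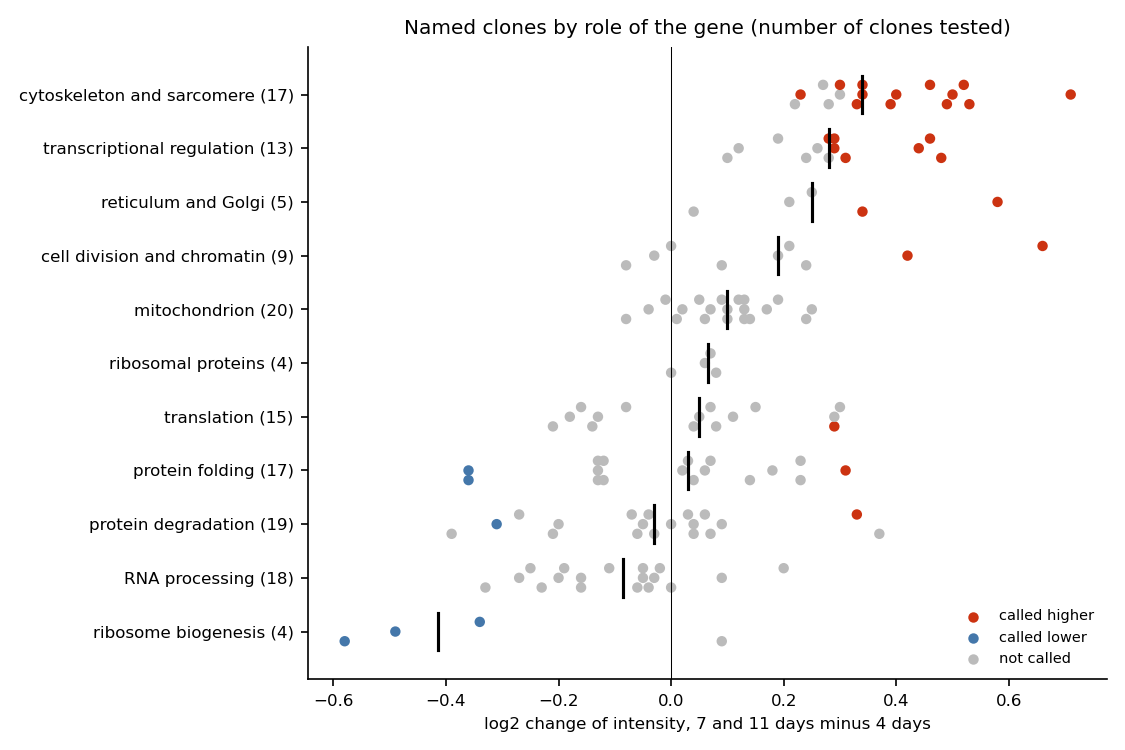
Log2 change of intensity between 7 and 11 days together and 4 days (x axis) for the 141 named clones that were tested, sorted by role, with the number tested in brackets and a black bar at the median. All 17 clones of the cytoskeleton and sarcomere and all 13 of transcriptional regulation lie to the right of 0, whereas NOP5 (-0.58) and fibrillarin (-0.49) of ribosome biogenesis lie furthest to the left.

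Most contractile and cytoskeletal genes tested were higher at 7 and 11 days. The study drew their list from a cluster of later induction in these same fish, so direction and share partly repeat that grouping. Of 27 clones on the list 17 were tested, with a median of 0.34 against 0.01 over all tested clones. Every one had a positive change (0.22 to 0.71), as did 977 of all 1811. The number called was 13 (76.5%, against 4.42% of all tested clones). It was 14 under quantile normalization, 9 after centring the arrays on clones listed in all fish, and 8 without fish 2 and 8 of 4 days. Fish 10 of 7 days had the lowest value of its group for several of these genes, and without it 15 of the 17 were called.

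The lowest p of a named clone was that of myosin light polypeptide 6, an essential light chain that in mammals belongs to the myosins of smooth muscle and of cells that are not muscle. Its clone 1RT74D04_D_B02 ran from 4.02 to 5.28 at 4 days (median 4.68), from 5.29 to 7.67 at 7 days (6.64) and from 5.83 to 8.47 at 11 days (6.13). Each of the 17 later fish thus lay above all 9 fish at 4 days, with 5.28 the highest at 4 days and 5.29 the lowest later. The change was 0.50 (SE 0.07, adjusted p = 0.00014), a fold of 1.42. A further clone of the gene, 1RT140H09_B_D05, rose by 0.33 (SE 0.09, adjusted p = 0.0221, with the call lost in 5 of 41 other settings), and the clones moved together over the 26 fish (r = 0.84 over 26 arrays that they share). Clones that share a name did not always do so: over the 7 genes with 2 tested clones r ran from -0.25 for protease regulatory subunit 4 to this value, with 0.14 for Sm D2, 0.15 for the theta chaperonin subunit, 0.45 for initiation factor 5 and 0.76 for ATP synthase beta.

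Other light chains rose by similar amounts. Cardiac myosin light chain 1, which stabilises the lever arm of the heavy chain, lay between 1.67 and 2.33 at 4 days (median 2.11), between 1.93 and 3.78 at 7 days (3.04) and between 2.21 and 5.09 at 11 days (2.93). Of the 17 later fish 13 exceeded every fish at 4 days, 7 of 9 fish at 4 days lay within the range of the later fish, and the change was 0.53 (SE 0.12, adjusted p = 0.00661). Myosin light polypeptide 4, named in mammals for the light chain of atrial and embryonic muscle, rose by 0.52 (SE 0.12, adjusted p = 0.0069), with medians of 5.25, 7.06 and 7.23 at 4, 7 and 11 days and 5 of 17 fish beyond the highest at 4 days. Myosin regulatory light chain 2 rose by 0.49 (SE 0.11, adjusted p = 0.00556), from 3.37 to 5.93 at 4 days to 4.66 to 9.01 in the later fish. The skeletal isoform of myosin light chain 1 rose least, by 0.30 (SE 0.08, adjusted p = 0.0267, with the call lost in 5 of 41). For this clone 8 of 9 fish at 4 days lay within the range of the later fish, and 9 of 17 later fish exceeded every fish at 4 days.

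Troponin T of cardiac type, the subunit that ties the troponin complex to tropomyosin, showed the largest rise of a named clone. It ran from 4.85 to 11.5 at 4 days (median 5.99), from 8.19 to 13 at 7 days (9.96) and from 7.03 to 16 at 11 days (9.84), and the change was 0.71 (SE 0.14, adjusted p = 0.00147), a fold of 1.64. Of the fish at 4 days 2 lay within the range of the later fish, and 6 of the 17 later fish exceeded the highest at 4 days. Skeletal troponin C, the calcium sensor of the thin filament, had medians of 8.91, 12.4 and 12.3 at 4, 7 and 11 days and ranged between 7.80 and 10.6, 6.68 and 15.1, and 10.4 and 14.4. The change of this clone, 1RT73O02_C_H01, was 0.40 (SE 0.09, adjusted p = 0.00583), while the other troponin C clone, 1RT144L05_B_F03, changed by 0.30 (SE 0.09) and did not pass (adjusted p = 0.0607). Values of both clones went together over the fish (r = 0.82). Cardiac myosin light chain 1 and cardiac troponin T thus rose beside the tested isoforms of fast muscle. The other isoforms named for slow or cardiac muscle could not be tested, the beta heavy chain being listed in 1 fish and cardiac alpha actin in 9. The part of slow fibres in the slice was not tested.

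The calls of tropomyosins, nebulin and the capping protein were lost in more of the other settings than those of the troponin clones called. Tropomyosin 1 alpha, a rod that lies along the actin filament and blocks or opens the myosin sites, rose by 0.46 (SE 0.13, adjusted p = 0.0354), with medians of 1.96, 2.69 and 3.05 at 4, 7 and 11 days, and the call was lost in 11 of 40 other settings. Tropomyosin alpha 4 rose by 0.39 (SE 0.12, adjusted p = 0.0472), and its call was lost in 22 of 41. Nebulin, a giant protein that runs along the thin filament, went from a median of 11.4 to 13.9 and 15.6, a change of 0.34 (SE 0.10, adjusted p = 0.0396), and the call was lost in 17. The beta subunit of the F-actin capping protein, which closes the end of thin filaments at the Z-disc, rose by 0.23 (SE 0.07, adjusted p = 0.0391), with the call lost in 15.

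Dystrophin, which links the fibre's cytoskeleton to its membrane and matrix, was called in all 41 other settings. Its values were 3.86 to 5.56 at 4 days (median 4.48), 4.19 to 5.79 at 7 days (5.48) and 5.51 to 6.69 at 11 days (6.31). The 11-day fish lay almost wholly above those at 4 days, and the change was 0.34 (SE 0.07, adjusted p = 0.00464). The clones of this role that did not pass were myosin-10, a heavy chain of non-muscle myosin in mammals (0.28, adjusted p = 0.0541), unc-89, a scaffold of the M-line in nematodes (0.27, adjusted p = 0.118), a subunit of the Arp2/3 complex, which branches actin (0.22, adjusted p = 0.169), and the troponin C clone named above.

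**Figure D3:**
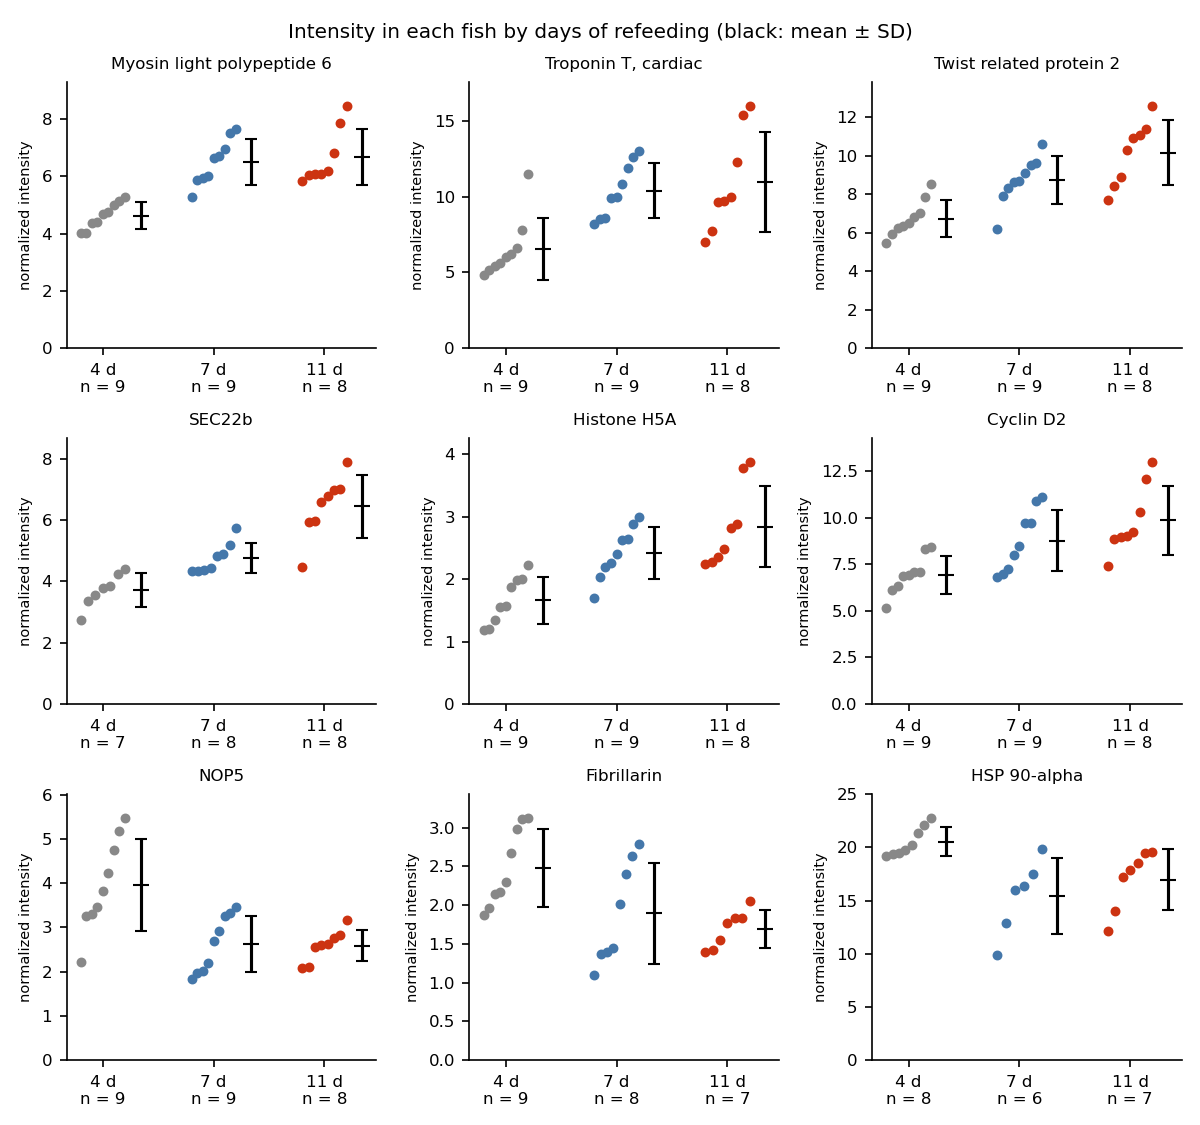
Normalized intensity (y axis, linear) in each fish refed for 4, 7 or 11 days (x axis) for 9 named clones, with points sorted by value within a group, n as the number of fish with a value and black marks as mean ± SD. Myosin light polypeptide 6 separates the 17 later fish from the 9 at 4 days, while the other clones overlap to differing degrees. The fish at 4 days within the range of the later ones run from 1 of 7 for SEC22b to 7 of 9 for Twist related protein 2.

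Among transcriptional regulators 7 of 13 tested clones (31 on the list) were called higher in the later fish, 53.8% against 4.42% of all tested clones. The study listed its regulators as induced during recovery in these same fish, so the share describes a chosen list. All 13 had a positive change (0.10 to 0.48), as did 977 of all 1811, and the median was 0.28. The number called fell to 4 after centring the arrays on clones listed in all fish and under the replicate block, and to 3 without fish 2 and 8 of 4 days. Twist related protein 2, a basic helix-loop-helix factor of mesenchymal cells that in mammals restrains muscle differentiation, had the lowest p of them. It kept its call in all 41 other settings. Its intensity was 5.48 to 8.51 at 4 days (median 6.48), 6.20 to 10.6 at 7 days (8.68) and 7.69 to 12.6 at 11 days (10.6). Of the 17 later fish 12 lay above the highest fish at 4 days, and the change was 0.48 (SE 0.09, adjusted p = 0.00181). The part of connective tissue cells in the result was not tested.

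A further pair of regulators was dim. The cell growth-regulating nucleolar protein LYAR, a zinc finger protein of the nucleolus, went from 0.789 to 1.13 in 7 fish at 4 days to 1.02 to 1.86 in 16 later fish, a change of 0.44 (SE 0.10, adjusted p = 0.00661). Homeodomain-only protein, which in mouse heart binds serum response factor, went from 0.423 to 0.563 in 6 fish to 0.492 to 0.933 in 16, a change of 0.46 (SE 0.12, adjusted p = 0.0182), with the call lost in 4 of 39. All of these values lie below the array medians of 2.04 to 3.00. At 4 days 2 fish had no value for the former and 3 for the latter, against 1 later fish for either.

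The remaining called regulators changed by a log2 of about 0.3 and none held its call in every setting. SOX-11, a factor of the SRY-box family found in embryonic and progenitor tissue, was bright, with medians of 20.5, 23.7 and 27.1 at 4, 7 and 11 days (0.31, SE 0.09, adjusted p = 0.0333). Myocyte-specific enhancer factor 2A, which drives contractile genes in vertebrates, had medians of 1.18 at 4 days, 1.49 at 7 days and 1.42 at 11 days (0.29, SE 0.08, adjusted p = 0.0397). The muscle histone methyltransferase smyd1, which in zebrafish is needed to build myofibrils, had medians of 4.36, 5.41 and 5.85 (0.29, SE 0.09, adjusted p = 0.04), and REST corepressor 1 rose by 0.28 (SE 0.08, adjusted p = 0.04). Calls were lost in 8 of 41 other settings for SOX-11, 16 of 39 for enhancer factor 2A, 22 of 40 for smyd1 and 16 of 40 for REST corepressor 1. Foxo3A, a forkhead factor tied to muscle wasting in mammals, had a change of 0.28 (SE 0.10) that did not pass (adjusted p = 0.0957).

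In cell division and chromatin 2 of 9 tested clones (20 on the list) were called and both were higher (22.2%, against 4.42% of all tested clones). Histone H5A, a linker histone that in birds is known from nucleated red blood cells, ran from 1.19 to 2.23 at 4 days (median 1.57), 1.70 to 3.00 at 7 days (2.40) and 2.25 to 3.88 at 11 days (2.66). The 8 fish at 11 days all exceeded the highest fish at 4 days, and the change over both times was 0.66 (SE 0.12, adjusted p = 0.00147). Cyclin D2, which with its kinase carries cells from G1 into S phase, had medians of 6.90, 8.47 and 9.13 at 4, 7 and 11 days, with fish between 5.14 and 8.40 at 4 days and between 6.81 and 13 later, a change of 0.42 (SE 0.10, adjusted p = 0.0109). Histone H3 (0.19, adjusted p = 0.0745) and mitogen-activated protein kinase 9 (0.24, adjusted p = 0.137) came next and did not pass. No other marker of red blood cells was on the list, and the part of blood in the H5A values was not tested.

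Of 5 tested clones of the reticulum and Golgi (21 on the list) 2 were called, both higher, against 4.42% of all tested clones. The study drew this list from clusters of later induction in these same fish, so direction and share partly repeat that grouping. SEC22b, a vesicle protein that lets carriers from the reticulum fuse with the Golgi, ran from 2.75 to 4.40 in 7 fish at 4 days (median 3.79), 4.33 to 5.74 in 8 fish at 7 days (4.64) and 4.46 to 7.91 in 8 fish at 11 days (6.68). Of 16 later fish 13 lay above the highest at 4 days, and the change was 0.58 (SE 0.12, adjusted p = 0.00318). Oxysterol-binding protein 1, which moves sterols between these membranes, rose by 0.34 (SE 0.10, adjusted p = 0.0453), a call lost in 25 of 40 other settings. The galactosyltransferase and the isoprenylcysteine methyltransferase of this list changed by 0.25 and 0.21 and did not pass (adjusted p = 0.161 and 0.197).

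The ribosome biogenesis genes NOP5, fibrillarin and Brix domain protein 1 were lower at 7 and 11 days. Only 4 of the 15 clones of ribosome biogenesis could be tested, and 3 of them were called lower, against 1.38% of all tested clones. The number called was 1 without fish 2 and 8 of 4 days and 1 under quantile normalization. The study had grouped most of its ribosome biogenesis genes by a peak at 4 days in these same fish. Direction and share thus partly repeat that grouping. NOP5, a core protein of the particles that methylate ribosomal RNA, ran from 2.21 to 5.48 at 4 days (median 3.82), 1.84 to 3.45 at 7 days (2.69) and 2.08 to 3.16 at 11 days (2.62). All 17 later fish were below the mean of 4 days and 6 were below its lowest fish, with a change of -0.58 (SE 0.13, adjusted p = 0.0049), and the call held in all 41 other settings. Fibrillarin, the methyltransferase of the same particles, ran from 1.87 to 3.13 at 4 days (median 2.30), 1.1 to 2.79 at 7 days (1.73) and 1.40 to 2.06 at 11 days (1.77).

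The change of fibrillarin was -0.49 (SE 0.14, adjusted p = 0.0373), and 10 of 15 later fish lay below every fish at 4 days. Its call was lost in 12 of 40 other settings. The Brix domain protein 1, of a family that assembles the large ribosomal subunit in yeast, changed by -0.34 (SE 0.10, adjusted p = 0.0465), with medians of 1.32, 1.13 and 1.11, and lost its call in 28 of 39. The clone named for hypothetical protein MJ1432 changed by 0.09 (SE 0.13) and did not pass. By contrast the 4 ribosomal proteins tested, of 11, changed by 0.00 to 0.08 with adjusted p of at least 0.603, the largest SE being 0.13. The study had described ribosomal proteins as nearly uniform over these feeding times in the same fish, so this contrast is no independent evidence.

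Among chaperones and folding enzymes 17 of 24 clones were tested. Of these 2 were called lower (11.8%, against 1.38% of all tested clones) and 1 higher (5.88%, against 4.42%), and the median was 0.03. Heat shock protein HSP90-alpha, which in zebrafish helps to fold myosin, was bright and ran from 19.2 to 22.8 in 8 fish at 4 days (median 20.0), 9.91 to 19.9 in 6 fish at 7 days (16.2) and 12.1 to 19.6 in 7 fish at 11 days (17.9). Of 13 later fish 10 lay below every fish at 4 days. The change was -0.36 (SE 0.11, adjusted p = 0.0491), at the edge of the threshold, and the call was lost in 25 of 40 other settings. The mitochondrial 10 kDa heat shock protein, the lid of the mitochondrial folding chamber, also changed by -0.36 (SE 0.11, adjusted p = 0.0391), with medians of 0.998, 0.846 and 0.689 and the call lost in 19 of 40.

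FK506 binding protein 14, a prolyl isomerase of the reticulum that acts on collagen in mammals, rose by 0.31 (SE 0.09, adjusted p = 0.0406), a call lost in 16 of 39 other settings. It was listed in only 5 fish at 4 days (0.896 to 1.16), and 14 of 15 later fish exceeded them. The cytosolic chaperonin that folds actin and tubulin is named for its T-complex protein 1 subunits, and none of them was called. The zeta subunit changed most (0.23, SE 0.08, adjusted p = 0.0667), and both clones of the theta subunit lay near 0 (0.04 and 0.03).

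Protein degradation gave 1 rise and 1 fall in 19 tested clones of 44 (5.26% each), and the median was -0.03. Over all tested clones 4.42% were called higher and 1.38% lower. Ubiquitin, the tag of proteins bound for the proteasome, ran from 5.52 to 10.3 at 4 days (median 8.25), 8.23 to 14.2 at 7 days (10.0) and 7.77 to 12.5 at 11 days (11.0), a change of 0.33 (SE 0.10, adjusted p = 0.0436). Subunit 7 of the COP9 signalosome, a complex that trims the ubiquitin-like protein NEDD8 from ubiquitin ligases, changed by -0.31 (SE 0.10, adjusted p = 0.0498), with medians of 1.93, 1.68 and 1.60. The calls were lost in 22 and 30 of 41 other settings. The ubiquitin ligase ariadne-2 (0.37, adjusted p = 0.0937) and proteasome regulatory subunit 13 (-0.39, adjusted p = 0.0957) had larger changes that did not pass, and both clones of the protease regulatory subunit 4 lay near 0 (-0.05 and -0.04).

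Few clones of translation, RNA processing and the mitochondrion were called. An unadjusted p under 0.05 (limma) was reached by 6 of 15, 7 of 18 and 2 of 20 tested clones, against 365 of all 1811. In translation 15 of 25 clones were tested and 1 was called, glutaminyl-tRNA synthetase, which charges its tRNA with glutamine. Its medians were 1.97, 2.19 and 2.63 at 4, 7 and 11 days, with fish between 1.65 and 2.27 at 4 days and between 2.07 and 3.15 later, a change of 0.29 (SE 0.08, adjusted p = 0.0226) whose call was lost in 1 of 40 other settings. Of 2 clones of initiation factor 5, one changed by -0.21 (SE 0.07, adjusted p = 0.0526) and the other by -0.08 (SE 0.06, adjusted p = 0.557). The density-regulated protein and asparaginyl-tRNA synthetase had changes of 0.30 and 0.29 that did not pass (adjusted p = 0.0603 and 0.111).

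For RNA processing 18 of 43 clones were tested, 15 with a negative change (against 834 of all 1811), and the median was -0.09. The first in order of p were the small nuclear ribonucleoprotein B' (-0.33, SE 0.11, adjusted p = 0.0905), ribonucleoprotein I (-0.23, adjusted p = 0.136) and polyadenylate-binding protein 2 (-0.20, adjusted p = 0.159), all of splicing or tail formation. The 2 clones of Sm D2, a ring protein of the spliceosome, had opposite signs (-0.16 and 0.09) and neither passed. In the mitochondrion 20 of 30 clones were tested, 17 with a positive change (against 977 of all 1811), and the median was 0.10. Cytochrome c oxidase subunit 3 (0.24, SE 0.09, adjusted p = 0.111) and the 39 kDa subunit of complex I (0.25, SE 0.10, adjusted p = 0.159) had the lowest p, and the ATP synthase beta clones changed by 0.19 and 0.13 without passing.

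Of the 105 called clones 53 rises and 19 falls had no gene name. The largest rises among them were those of 1RT121C10_C_B05 and tcbk0033.a.16. The former ran from 1.62 to 2.08 in 7 fish at 4 days (median 1.78) and from 2.06 to 3.79 in the 17 later fish (2.92), of which 16 exceeded every fish at 4 days. Its change was 0.72 (SE 0.09, adjusted p = 1.44e-05), the lowest adjusted p of all clones. The clone tcbk0033.a.16 rose by 0.71 (SE 0.12), from a median of 7.85 to 11.8 at 7 days and 15.7 at 11 days. In the other direction tcba0026.e.02 changed by -0.70 and 1RT42K10_C_F05 by -0.61, the latter with medians of 6.47, 4.58 and 4.06 and all 17 later fish below the mean at 4 days.

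With 7 and 11 days taken apart, more clones passed at 11 days than at 7. At 7 days 11 clones were higher (0.607%) and 5 lower (0.276%) than at 4 days, and at 11 days 108 were higher (5.96%) and 34 lower (1.88%). The comparisons share the 9 fish at 4 days, and a direct test of 11 against 7 days called 0 of the 1811 clones (limma, smallest adjusted p = 0.249, 100 at an unadjusted p under 0.05). Thus no clone was shown to differ between 7 and 11 days. Among the 80 clones called higher the median change was 0.30 at 7 days and 0.45 at 11 days, and among the 25 called lower it was -0.32 and -0.40. Over all tested clones it was 0.01 and 0.02. The called clones were chosen on these same fish, so the signs of their medians follow from that choice. SEC22b stood at 0.37 (SE 0.11) at 7 days and 0.80 (SE 0.11) at 11 days, tropomyosin 1 alpha at 0.29 and 0.65, and dystrophin at 0.24 and 0.45. For myosin light polypeptide 6 (0.49 and 0.52), cardiac troponin T (0.69 and 0.73) and NOP5 (-0.58 and -0.58) the values were nearly the same.

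**Figure D4:**
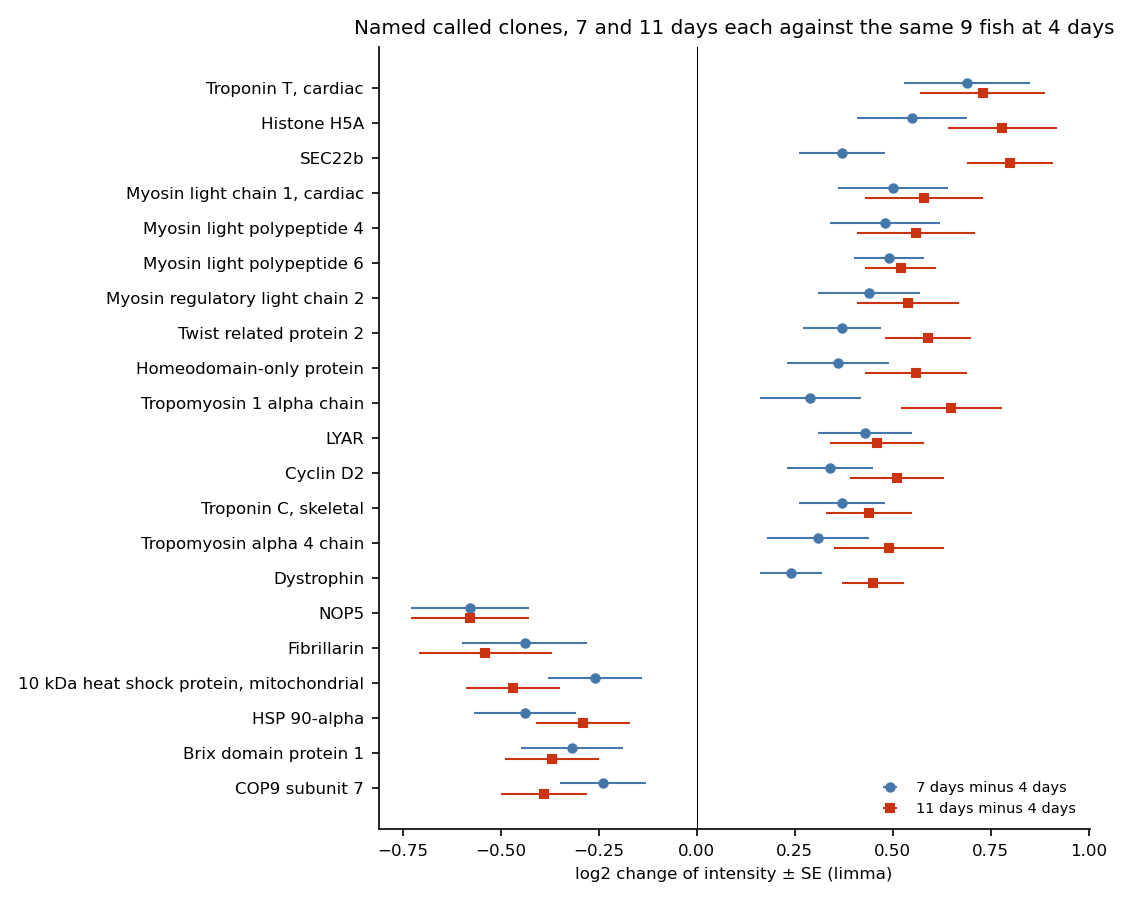
Log2 change of intensity ± SE (x axis, limma) at 7 days (circles) and 11 days (squares), each against the same 9 fish at 4 days, for the 15 largest named rises and the 6 named falls. SEC22b lies at 0.37 and 0.80, the widest gap among the rises, and NOP5 at -0.58 for both times.

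The test that called these clones did not use the fish fasted or refed for 36 days. The study, however, printed names for clones that it had selected by comparing refed fish, 36 days included, with fasted fish. For the 27 named clones called higher and the 6 called lower, this comparison is thus no independent evidence. In the fasted and 36-day fish 69 of the 80 clones called higher could be tested. Of these 55 (79.7%) were higher at 36 days than in fasted fish and 3 (4.35%) lower, against 14.6% and 22.5% of all 1561 clones tested. Of the clones called lower 19 could be tested, with 13 (68.4%) lower at 36 days and 1 (5.26%) higher. These counts include named clones, and shares for unnamed clones alone were not worked out. Myosin light polypeptide 6 was higher at 36 days by 0.94 (adjusted p = 7.18e-11), myosin light polypeptide 4 by 1.19 (adjusted p = 6.07e-09) and dystrophin by 0.74 (adjusted p = 1.77e-09). Nebulin, by contrast, did not pass in that comparison (0.23, adjusted p = 0.125).

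By their medians several called genes did not move steadily in a single direction from fasted fish to 36 days. They were called by the difference between 4 days and the later fish, so an extreme median at 4 days partly follows from that choice. Fish at 4 days were not tested here against fasted or 36-day fish. Histone H5A had a median of 1.89 in fasted fish and 1.57 after 4 days of feeding, stood highest at 11 days (2.66) and was back at 1.82 by 36 days, a level that did not pass against fasted fish (-0.18, adjusted p = 0.31). Cyclin D2 had its highest median at 11 days (9.13), against 3.95 in fasted fish and 5.93 at 36 days. Its level at 36 days was still above that of fasted fish by 0.56 (limma, adjusted p = 6.05e-05). Ubiquitin had its highest median in fasted fish (16.5), its lowest at 4 days (8.25) and one of 10.7 at 36 days. Heat shock protein HSP90-alpha was lowest in fasted fish (median 5.35, highest fish 6.64), and the fall after 4 days began from its highest median (20.0). At 36 days it was above fasted fish by 1.66 (adjusted p = 6.37e-11). Fibrillarin likewise had its highest median at 4 days (2.30), against 1.16 in fasted fish and 1.25 at 36 days.

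**Figure D5:**
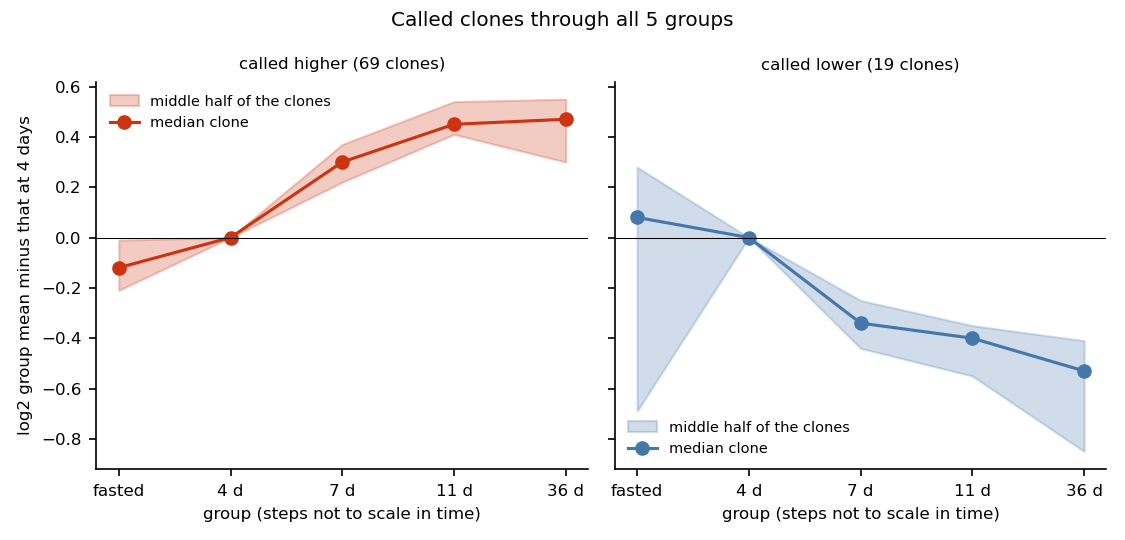
Median (points) and interquartile range (shading) of the log2 group means minus that at 4 days (y axis) in the 5 groups (x axis), for 69 clones called higher and 19 called lower with values in at least 5 fish of every group. The rises reach a median of 0.30 at 7 days, 0.45 at 11 days and 0.47 at 36 days from -0.12 in fasted fish. Fasted levels of the clones called lower spread widely, with quartiles of -0.69 and 0.28. The clones were chosen on the fish at 4, 7 and 11 days, so the signs at 7 and 11 days follow from that choice. The chosen 4-day mean also enters the values of the fasted and 36-day fish.

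For 1450 clones listed in only some fish, the number of fish with a value was compared between 4 days and the later times by a two-sided Fisher exact test (9 against 17 fish). None passed after adjustment (0%, smallest adjusted p = 0.102), and 74 had an unadjusted p under 0.05. The first in order was skeletal alpha actin, the main protein of the thin filament, listed in 9 of 9 fish at 4 days and 3 of 17 later fish (exact p = 7.04e-05). Cardiac alpha actin was listed in 7 and 2 fish (exact p = 0.00162). Both were among the brightest clones where listed, with medians of 16.1 and 14.4 at 4 days, so an empty cell cannot be read as a low level, and whether either gene changed was not tested. RRP5, a factor of ribosomal RNA processing, was listed in 8 of 9 and 3 of 17 fish (exact p = 0.00081) with a median of 0.934 at 4 days. The ribosome biogenesis protein BMS1 was listed in 6 and 3 fish (exact p = 0.0277). The clone named for MJ1432, of the same role, went the other way, with 5 and 16 fish (exact p = 0.0345). Whether RRP5 or BMS1 changed in level was not tested.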

How the data were processed

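Fast muscle RNA of single trout was hybridised by the study, radiolabelled, to nylon cDNA arrays. The authors left out spots with too little spotted cDNA, set every remaining signal against that of a vector oligonucleotide on the same spot, and scaled each array to its median. The deposited values are these normalized intensities on a linear scale. Of 9216 table rows, 193 were controls and not used. Among 9023 clones, empty cells (171115 on the 26 arrays) and zeros (6421) were taken as missing, the rule for either not being given in the sources used here beyond the spot filter.

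Log2 intensities entered the test for 1811 clones, those listed for 5 or more fish at 4, 7 and 11 days alike. A linear model without covariates, in which 7 and 11 days shared 1 mean, was fitted with limma (version 3.58.1, under R 4.3.3), and p was adjusted by Benjamini and Hochberg over all clones tested. Side comparisons used 1 mean per group, with 43 arrays for 36 days against fasted fish. The calling was tried on simulated data with noise independent between clones and fish, which cannot show how shared array effects bear on the calls. Plots were drawn with matplotlib 3.10.9. The number of fish limits the precision. The p-value sets the difference of means against a spread between fish that limma draws toward that of all tested clones. With 1 array per fish this spread includes that between arrays. In the main fit it also includes any difference between 7 and 11 days, which share 1 mean.

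Gene names came from clone labels that the study printed, read from its pictures. Sites named for a gene can also bind its close relatives, which trout carry in many copies. Genes described were the 15 largest named rises and falls among called clones, up to 4 clones of lowest p per role, genes with 2 tested clones, and 2 unnamed clones in each direction. The other called clones with a name, and RRP5, BMS1 and the actins, were added after their values were seen. The groups, gene lists and tests were chosen with earlier results of these data known. Alternatives were other scalings (quantile, centring, square roots, an offset of 0.5), filters, array weights, an intensity trend, the replicate number as a block, the number of values as a covariate, all 43 arrays, a threshold of 0.0001 and each fish left out in turn. Leaving out fish 2 and 8 of 4 days was added after the data had been seen. Clone sequences were not used here.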

Additional observations from a re-analysis of the deposited data

Results flagged for a closer look

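In 204 groups of values (68 clones at 3 feeding times) the highest or lowest fish was checked for a gap to its nearest neighbour that took up too much of the group's range on the log2 scale. This flagged 15 of the groups, some of them for the same fish. Chance alone flags about 1 group in 20.

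Fish 10 of 7 days was the lowest of its group in 6 of these cases: skeletal troponin C (6.68, the next fish at 10.2), nebulin (8.56, next 11.9), tropomyosin alpha 4 (8.22, next 11.0), dystrophin (4.19, next 4.92), myocyte-specific enhancer factor 2A (1.09, next 1.37) and histone H3 (1.82, next 2.00). Without this fish 119 clones were higher and 37 lower at 7 and 11 days, among them all 80 and all 25 called with it.

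At 4 days proteasome regulatory subunit 13 reached 2.43 in fish 2 (next 1.29), which has the fewest values of the 26 arrays. Ribonucleoprotein I was low in fish 9 of 4 days (0.856, next 1.03), where a clone of ATP synthase beta was high (7.06, next 5.38). The ribosomal protein S19 was high in fish 10 of 4 days (16.7, next 14.2). COP9 subunit 7 was high in fish 6 of 7 days (2.15, next 1.80).

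At 11 days asparaginyl-tRNA synthetase reached 3.50 in fish 10 (next 2.53). In fish 7 the clone named for hypothetical protein MJ1432 (1.49, next 0.90) and a clone of protease regulatory subunit 4 (2.01, next 1.58) were high. The unnamed clone tcbk0033.a.16 was low in fish 3 (9.88, next 14.6).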

How the results depend on the processing

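Of the 33 named clones called, 13 kept their call and all kept their direction in every other setting at the threshold of 0.05. Of 31 clones followed that were not called, 14 were called in some setting. Clones lower numbered 15 under quantile normalization, 49 after centring, and 14 among clones listed on all 26 arrays (fewer clones tested). Array weights gave 196 higher and 57 lower, including all 105 calls. Rises numbered 50 without the array with the fewest values of each group and 50 without fish 2 and 8 of 4 days, and leaving out 1 fish gave 49 to 119 rises and 17 to 37 falls. The cause of these shifts was not tested. At a threshold of 0.0001 the counts were 1 and 0 for 7 and 11 days together, 0 and 0 for 7 days, and 7 and 1 for 11 days against 4 days.

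The labels number the fish 2 to 10 in each group. Correlations of same-numbered fish of different groups (deviations from group means) were -0.25 to 0.49 over 25 pairs, 12 of them above 0.10. Of 26 fish 7 correlated best with one of their own number, and how many would do so by chance was not worked out. These values do not settle whether the numbers pair fish, and the main fit left the number out. With the number as a block, 71 clones were higher and 29 lower, of which 60 and 19 were among those called without it. Signs turned only for clones near 0 that were never called: ribosomal protein L17 was -0.01 after centring, -0.01 with the number of values as a covariate, -0.02 without the array with the fewest values of each group, and -0.03 to 0.04 with 1 fish left out. The theta chaperonin clone was -0.01 after centring, -0.01 without the arrays with the fewest values, and -0.02 to 0.07 with 1 fish left out, and MJ1432 was -0.03 with the covariate. Clones listed in too few fish, bright ones such as the alpha actins among them, could not be tested for a change in level.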

Other observations

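The largest falls in size were not among the calls. The clone with a change of -1.02 (SE 0.37, adjusted p = 0.103), which has no gene name, ran from 8.09 to 40.3 at 4 days, from 2.55 to 32.3 at 7 days and from 4.25 to 22.6 at 11 days, and 8 of 9 fish at 4 days lay within the range of the later ones. Its log2 SD among the later fish was 1.11, against a median of 0.22 over all tested clones. It ran from 7.62 to 24.6 in fasted fish and from 3.52 to 19.5 at 36 days. A further 10 of the 1811 clones, none of them named, had a correlation of at least 0.9 with it over the 26 fish, which share arrays and groups, and this group of clones was chosen after its values were seen. None of them was called, and their changes ran from -1.06 to -0.19. In each of the 3 groups fish 10 had the lowest value of this clone (8.09 at 4 days, 2.55 at 7 days and 4.25 at 11 days). With the fish number as a block its change was -1.05 (SE 0.24, adjusted p = 0.00994), and 5 of the other 10 clones passed as well, against 0 without the block. In fasted fish the fish numbered 10 had the highest value, 24.6. What the number stands for is not given in the labels, and its part in the values was not tested.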
